A study of Homo sapiens with 28 samples.

Results

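The expression of 35 genes of the integrated stress response and the unfolded protein response was compared between untreated xenograft tumours of renal cell carcinoma lines and tumours resistant to a VEGF receptor inhibitor. The genes were taken as a list of pathway members by function, with no threshold on these values but with earlier results of these data known. They were divided by role into 16 ATF4/CHOP genes (6 transcription factors and 10 of their targets), 4 stress sensors, and 14 ER chaperone and ERAD genes (11 chaperones and folding enzymes and 3 genes of ER-associated degradation). The antisense RNA gene VLDLR-AS1, the remaining gene, had no probe set annotated to it alone and was not analysed here. All 34 others passed the filter on low values and were tested, among 13808 genes tested of 19775 measured. The dimmest of them, CHAC1, was above the filter limit (a signal of 89.4) on 19 of 28 arrays, and the other 33 on all 28.

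The integrated stress response begins when kinases such as PERK, GCN2, PKR and HRI phosphorylate the translation factor eIF2alpha, which slows translation in general and favours that of the transcription factor ATF4. ATF4 and its target CHOP (gene DDIT3) raise genes of amino acid uptake and synthesis, tRNA charging and feedback control. The unfolded protein response of the endoplasmic reticulum (ER) shares the PERK branch and adds IRE1 (ERN1), which splices XBP1 mRNA, and ATF6, which together raise ER chaperones and the ERAD machinery that removes misfolded proteins.

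The tumours came from 2 human lines, 786-O and A498, both without a working VHL tumour suppressor, grown under the skin of female athymic nude/beige mice that were 6 to 8 weeks old when the cells were given. Such mice lack T cells and have impaired natural killer cells, but keep myeloid cells, vessels and stroma of mouse origin. The sorafenib arm of 786-O had 5 untreated and 5 resistant tumours, and its sunitinib arm 5 untreated and 4 resistant ones. In A498, 4 untreated and 5 resistant tumours formed a sorafenib arm. The sample titles of the 786-O sorafenib arm begin with a different number from those of the sunitinib arm and of A498, which share theirs. What this number stands for is not stated. Both drugs block VEGF and PDGF receptors, and sorafenib also RAF kinases. Mice received 80 mg/kg of sorafenib or 53.6 mg/kg of sunitinib by mouth, on 6 days of the week from a tumour diameter of 12 mm. Resistant tumours are those labelled so, and the design text gives 12 mm before treatment and a limit of 20 mm as the sizes at which tumours were taken. The size and time on study of each tumour are not in the sources used here, so size and treatment cannot be told apart. Whether 1 mouse carried 1 tumour is not stated in the labels, and p-values thus reflect the spread between these tumours, which may in part be technical.

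Values are deposited linear probe set signals of 1-colour Affymetrix HG-U133 Plus 2.0 arrays, brought by scaling to 1 common trimmed mean, with array medians between 79.7 and 99.4. Across probe sets, 2 arrays of the same group correlated with r of 0.949 to 0.971. Of 10 markers of renal carcinoma lines 8 were measured and all 8 were tested, with mean levels per array between 11.55 and 11.99 on the log2(signal + 16) scale. In this list 1 gene rose and 2 fell in the 786-O sorafenib arm, and 1 fell in each of the other arms. Of 12 endothelial markers 4, of 12 myeloid markers measured 6, and of 15 fibroblast and pericyte markers 13 were tested. The human probes can also bind RNA of the mouse host. The fibroblast and pericyte list gave 0 rises and 6 falls in the 786-O sorafenib arm, where its mean level per array lay between 8.26 and 8.47 in untreated and between 7.34 and 8.07 in resistant tumours. It gave 0 rises and 1 fall in the sunitinib arm and neither in A498 (by limma, with 2 unadjusted p under 0.05). The endothelial, myeloid and skeletal muscle lists gave 1 fall each in the 786-O sorafenib arm. The 5 muscle genes tested had a median difference of -0.84 there, with 0 above 0, and of 0.85 on sunitinib, with 5 above 0 and none called. No gene was called in the plasma cell, red blood cell and adipose and skin lists, of which 3, 1 and 2 genes were tested. The part of these cell types in the values below was not tested, and in whole tumours fewer cells of a type and less RNA per cell cannot be told apart. The 3-prime minus 5-prime difference of the ACTB control probe sets, a measure of RNA integrity, was highest in an untreated 786-O tumour of the sorafenib arm (replicate 5, 1.03 on the log2 scale) and in a resistant one (replicate 4, 0.674), and all 6 calls of that arm stood without these 2 arrays.

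The sequences below are given to show matches in these genes to promoter elements known from the 2 responses. No difference between classes was tested. In RefSeq promoters of GRCh38.p14, from 250 bases before to 50 bases after a start, 3 motifs were searched on both strands. The ER stress response element (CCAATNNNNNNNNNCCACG), bound by NF-Y together with ATF6, was found in 5 of 14 ER chaperone and ERAD genes (HSPA5, HSP90B1, PDIA6, CRELD2 and ERO1B), in XBP1, and in 0 of the 15 ATF4/CHOP genes with a promoter in the table. It was in 27 of all 35116 promoters, or 25 of 27305 genes (0.0916%). The core of the C/EBP-ATF response element (TGATGCAA), bound by ATF4 with C/EBP partners, was found in 3 of 15 ATF4/CHOP genes (CHAC1, CEBPG and CARS1). It was also in the ERAD gene HERPUD1, and in 295 of 27305 genes (1.08%). The core of the unfolded protein response element (TGACGTGG) was found in HYOU1 and CARS1, and in 253 genes (0.927%). Only these exact letters were searched, so an element that differs by a base was missed. A match is a description of letters and shows no binding. Stretches are written from 5′ to 3′ on the strand of the gene, with the motif in capitals.

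CHAC1 (chr15:40953252-40953279, plus strand): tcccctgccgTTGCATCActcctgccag
CEBPG (chr19:33374061-33374088, plus strand): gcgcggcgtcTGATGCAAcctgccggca
HERPUD1 (chr16:56931956-56931983, plus strand): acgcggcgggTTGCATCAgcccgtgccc
HYOU1 (chr11:119057376-119057403, minus strand): gctggccccgTGACGTGGtccaatccca
HSPA5 (chr9:125241381-125241419, minus strand): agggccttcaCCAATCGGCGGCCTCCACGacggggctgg
PDIA6 (chr2:10812843-10812881, minus strand): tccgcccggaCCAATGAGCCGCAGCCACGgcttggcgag
CRELD2 (chr22:49918544-49918582, plus strand): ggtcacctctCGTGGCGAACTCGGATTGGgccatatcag
XBP1 (chr22:28800593-28800631, minus strand): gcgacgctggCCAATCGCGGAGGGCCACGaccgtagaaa
HSP90B1 (chr12:103930206-103930349, plus strand): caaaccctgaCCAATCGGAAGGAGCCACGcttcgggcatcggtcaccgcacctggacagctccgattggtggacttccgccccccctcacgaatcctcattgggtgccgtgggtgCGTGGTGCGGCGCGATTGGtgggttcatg

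In CHAC1, HERPUD1, CRELD2 and the second match of HSP90B1 the motif lies on the opposite strand and reads as its reverse complement. HSP90B1 held 2 ER stress response elements, from base -194 to -176 and from -89 to -71 before its start, and was the member with more than 1. The elements of HSPA5, PDIA6, CRELD2 and XBP1 all ended between 34 and 68 bases before the start.

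The members called as higher in resistant than in untreated tumours were mostly ATF4/CHOP genes, and the ER chaperone and ERAD genes gave 1 rise and 1 fall over the 3 arms. With 14 ER genes, 0 or 1 call per arm and direction is near the shares of all genes given below. All differences were taken between means of log2(signal + 16), so that changes of dim genes come out too small, and are given with ± their standard error. A gene was called when the Benjamini-Hochberg adjusted p of limma over 13808 genes was under 0.05. In 786-O on sorafenib 6 of 34 members rose (PPP1R15A, EDEM1, CEBPB, TRIB3, CEBPG and WARS1) and 0 fell, where 5.97% of all genes tested rose and 9.18% fell. In 786-O on sunitinib 3 rose (PPP1R15A, DDIT3 and ATF4) and 0 fell, where 2.22% of all genes rose and 2.84% fell. In A498 on sorafenib 5 rose (CHAC1, DDIT3, ASNS, ATF4 and WARS1) and 1 fell (MANF), where 2.93% of all genes rose and 3.4% fell. Of the 14 rises over the 3 arms, 13 were of ATF4/CHOP genes, and EDEM1 was the exception. ATF4, DDIT3, PPP1R15A and WARS1 were called in 2 arms each, 7 members in 1 arm and 0 in all 3, while 12, 11 and 14 members had an unadjusted p under 0.05 in the 3 arms. With only the arrays of the sunitinib arm in the fit none of its 3 calls stood (adjusted p = 0.0569 for PPP1R15A, 0.0772 for ATF4 and 0.183 for DDIT3).

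**Figure D1:**
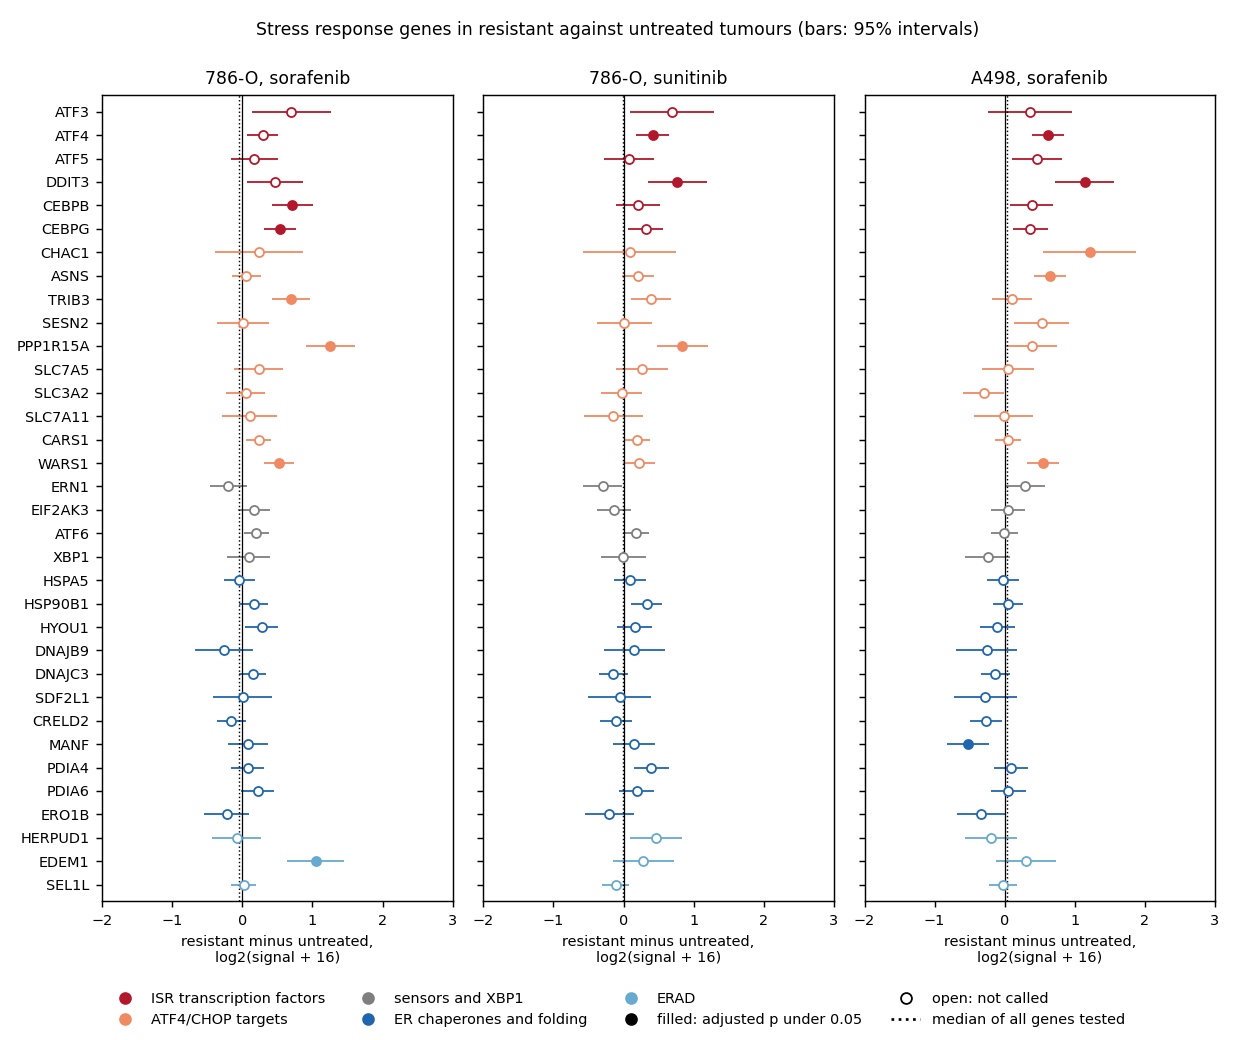
Difference between resistant and untreated tumours for the 34 members measured, in log2(signal + 16) units with 95% intervals, in 786-O on sorafenib (left), 786-O on sunitinib (middle) and A498 on sorafenib (right). Filled points are called, the dotted line is the median of all genes tested, and all filled points but MANF in A498 lie to the right of 0.

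The median difference of the 16 ATF4/CHOP genes was 0.27 in 786-O on sorafenib, 0.21 on sunitinib and 0.39 in A498, on the log2 scale. That of the 14 ER chaperone and ERAD genes was 0.05, 0.15 and -0.12, and that of all genes tested -0.05, -0.01 and 0.03. With 1 array left out in turn, the ER medians ran from 0.014 to 0.106 in 786-O on sorafenib, 0.032 to 0.194 on sunitinib and -0.146 to -0.070 in A498. ATF4/CHOP genes lay above 0 in 16, 14 and 14 cases of 16 in the 3 arms, and ER genes in 9, 9 and 4 of 14, where 43.1%, 47.9% and 54.2% of all genes did. The arms share no tumours, and 14 ATF4/CHOP genes lay above 0 in every arm, against 4 ER genes. Some did so by little, such as SESN2 by 0.01 in both arms of 786-O and CARS1 by 0.05 in A498. How many of all genes lay above 0 in every arm was not counted. With arrays centred on their medians the counts of ATF4/CHOP and ER genes became 12 and 1, and with quantile normalisation 13 and 4. The counts and medians are a description of the list, which was assembled with earlier results of these data known.

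ATF4, the transcription factor at the centre of the response, was measured here as mRNA and not as protein. It lay higher in resistant tumours in all 3 arms, under each of the 3 scalings, and was called in 2 of the arms. In 786-O of the sorafenib arm its signals were 7446, 7600.1, 7981, 8195 and 9636 in untreated and 8064, 9655, 9810.3, 10847 and 11848 in resistant tumours, so that the groups overlapped, and the difference was not called (0.29 ± 0.11, adjusted p = 0.0655). It was called under 7 alternatives (the 75th percentile filter, median centring, quantile normalisation, array weights, trended robust variance, and the ACTB or GAPDH covariate) and without untreated replicate 5 or resistant replicate 3. These resistant tumours had a mean log2 level of 13.28, against 13.29 in untreated 786-O tumours of the sunitinib arm. Untreated 786-O tumours of the sorafenib arm differed from those of the sunitinib arm by -0.30 ± 0.11 (limma, adjusted p = 0.227). The difference in the sorafenib arm thus depends on which untreated 786-O tumours are the reference. In the sunitinib arm the signals were 8735, 9899, 10302, 10427 and 10712 in untreated and 11479.7, 13841, 13952 and 14329 in resistant tumours. Every resistant tumour there was above every untreated one, and ATF4 rose by 0.42 ± 0.11 (adjusted p = 0.0304). In A498 the signals were 4926, 6039.7, 6111 and 6955 in untreated and 8118, 8531, 9669, 9801 and 9853 in resistant tumours, again without overlap, and the rise was 0.62 ± 0.11 (adjusted p = 0.00177), or 1.54-fold. The sunitinib call ended when any 1 of 5 arrays was left out (untreated replicate 1 or 4, resistant replicate 1, 2 or 3), with adjusted p up to 0.0955, and with quantile normalisation (0.31, adjusted p = 0.0903). It also ended without the filter on low values and with only the arrays of that arm.

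DDIT3 encodes CHOP, the transcription factor downstream of ATF4 that takes part in the death branch of the response. Its signals in A498 were 376, 402, 471 and 477 in untreated and 836, 901, 902, 1055 and 1199 in resistant tumours. All resistant tumours were above all untreated ones, and DDIT3 rose 2.21-fold (1.15 ± 0.20, adjusted p = 0.00144). In the 786-O sunitinib arm the signals were 538, 595, 657, 831 and 1016 in untreated and 729, 1107, 1538 and 1770.1 in resistant tumours. The groups overlapped, since the lowest resistant tumour was below 2 untreated ones, and the rise was 0.77 ± 0.20 (adjusted p = 0.0281). It lost its call without any 1 of 6 arrays (untreated replicate 1, 3 or 4, resistant replicate 2, 3 or 4), with adjusted p up to 0.122. In the 786-O sorafenib arm the signals were 528, 547, 565, 579 and 704 in untreated and 680.4, 698, 732, 906 and 1103 in resistant tumours, where only the highest untreated tumour reached into the resistant range (0.47 ± 0.19, adjusted p = 0.106).

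CEBPB and CEBPG encode C/EBP factors that pair with ATF4 at the C/EBP-ATF element, and both rose in 786-O on sorafenib. CEBPB signals there were 4374, 4677, 4798, 4847 and 6601 in untreated and 7009.7, 7696, 7759.6, 9319.6 and 9458 in resistant tumours, a rise of 0.71 ± 0.14 (adjusted p = 0.00105) without overlap. CEBPG signals were 464, 494, 538, 595 and 597 in untreated and 669, 722, 731, 898 and 930.0 in resistant tumours, also without overlap (0.54 ± 0.11, adjusted p = 0.00186). Neither was called in the other arms, where CEBPG differed by 0.32 ± 0.12 on sunitinib and 0.37 ± 0.12 in A498 (adjusted p = 0.136 and 0.0685) and CEBPB by 0.21 ± 0.15 and 0.39 ± 0.15 (adjusted p = 0.501 and 0.128). ATF3, a stress-induced repressor and activator, did not overlap between the groups of the 786-O sorafenib arm, with 232, 232, 244, 292 and 341 in untreated and 357, 359, 427, 505 and 588 in resistant tumours, but was not called (0.70 ± 0.27, adjusted p = 0.0886). In the other arms it differed by 0.69 ± 0.29 on sunitinib and 0.36 ± 0.29 in A498. ATF5, which like ATF4 is controlled at translation, differed by 0.17, 0.08 and 0.46 in the 3 arms, in no case called.

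**Figure D2:**
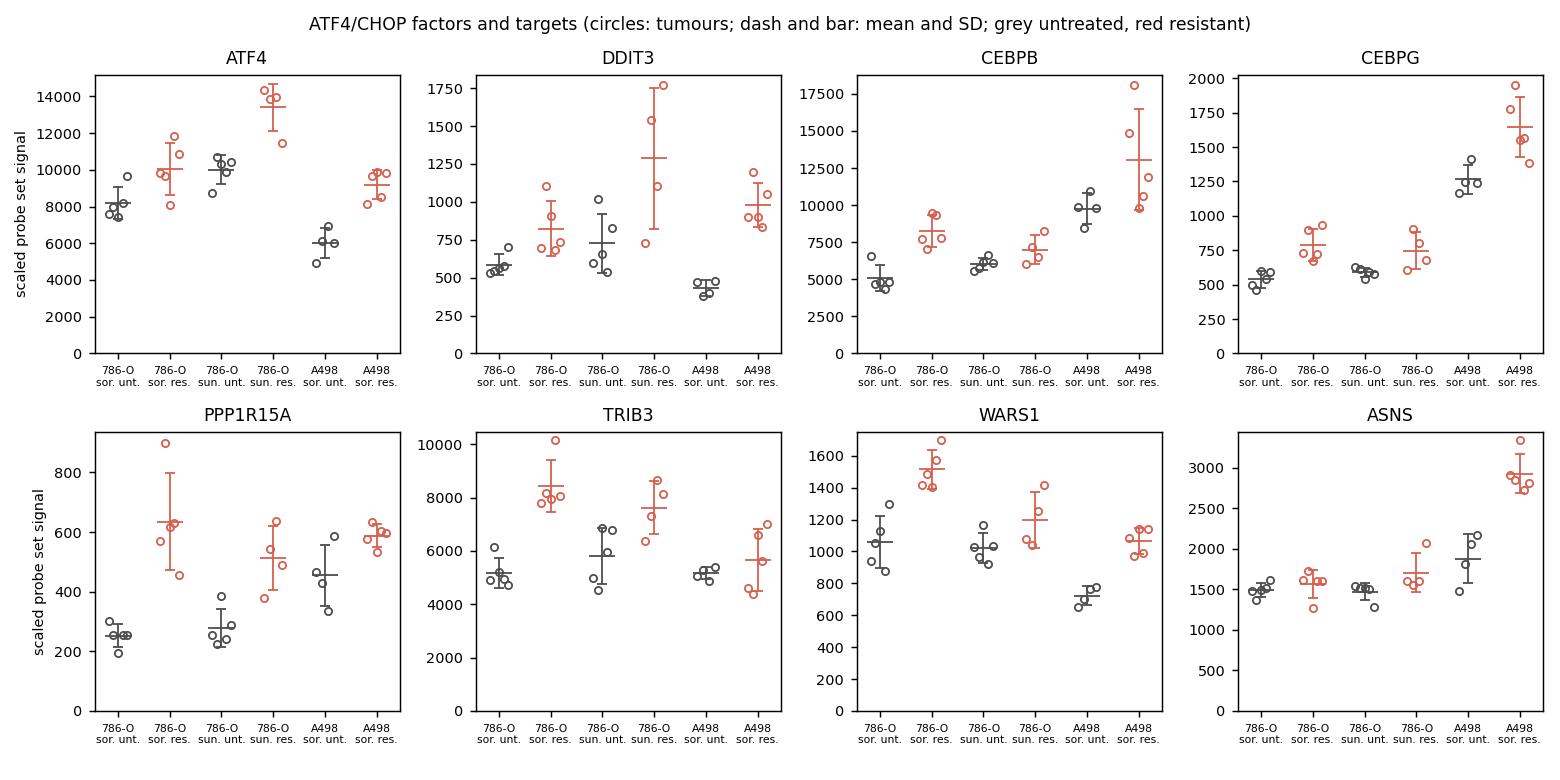
Scaled probe set signal (linear axis from 0) of 8 ATF4/CHOP genes in each of 28 tumours, by line, arm and treatment; circles are tumours, and the dash and bar give the mean and SD of 4 or 5 tumours. The resistant circles (red) of CEBPB, CEBPG, PPP1R15A, TRIB3 and WARS1 lie above all untreated ones (grey) in 786-O on sorafenib, and those of ATF4, DDIT3, WARS1 and ASNS do so in A498.

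PPP1R15A encodes GADD34, the inducible subunit that brings protein phosphatase 1 to eIF2alpha and so ends the response. In 786-O on sorafenib its signals were 195, 254, 256, 256 and 303 in untreated and 458, 571, 618, 629 and 900.5 in resistant tumours. The lowest resistant tumour was above the highest untreated one, and the rise was 2.39-fold (1.25 ± 0.17, adjusted p = 9.44e-06). In the sunitinib arm the signals were 225, 243, 256, 287 and 386 in untreated and 378, 491, 544 and 636 in resistant tumours, with 1 untreated tumour just above the lowest resistant one (0.84 ± 0.18, adjusted p = 0.00734). In A498 they were 335, 431, 467 and 585 in untreated and 533, 576, 597, 604 and 633 in resistant tumours, which overlapped, and the difference was not called (0.39 ± 0.18, adjusted p = 0.212).

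TRIB3, a pseudokinase induced by ATF4 and CHOP that inhibits both AKT and ATF4, had signals of 4728, 4913, 4934, 5210.1 and 6154 in untreated and 7815, 7937, 8070.3, 8167 and 10173 in resistant tumours of the 786-O sorafenib arm. Its rise there was 0.70 ± 0.13 (adjusted p = 0.000622) without overlap. It differed by 0.40 ± 0.14 on sunitinib (adjusted p = 0.108) and by 0.11 ± 0.14 in A498 (adjusted p = 0.724), where resistant signals spread from 4398 to 7003 around untreated signals of 4891 to 5405.

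WARS1, the cytosolic tryptophanyl-tRNA synthetase, rose in both sorafenib arms. Its signals were 877, 938, 1056, 1129 and 1296 in untreated and 1403, 1415, 1489, 1572 and 1697 in resistant 786-O tumours (0.52 ± 0.10, adjusted p = 0.000919), and 649, 703, 762 and 777 in untreated and 969.7, 993, 1085, 1139.6 and 1141 in resistant A498 tumours (0.55 ± 0.11, adjusted p = 0.00345). Neither pair of groups overlapped. On sunitinib the difference was 0.22 ± 0.11 (adjusted p = 0.282). WARS1 is also known as an interferon-inducible gene. The cysteinyl-tRNA synthetase CARS1 differed by 0.23, 0.19 and 0.05 in the 3 arms and was not called (adjusted p = 0.0691 in the 786-O sorafenib arm).

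ASNS, which makes asparagine and is a classical ATF4 target, was called in A498 and in neither arm of 786-O. A498 signals were 1484, 1814, 2053 and 2167 in untreated and 2723, 2816, 2844, 2912 and 3337 in resistant tumours, a rise of 1.56-fold without overlap (0.65 ± 0.11, adjusted p = 0.000861). In the 786-O sorafenib arm they were 1371, 1478, 1495, 1513 and 1617 in untreated and 1268, 1604, 1606, 1614 and 1722 in resistant tumours (0.06 ± 0.10, adjusted p = 0.759). In the sunitinib arm they were 1280.4, 1503, 1516, 1519 and 1536 in untreated and 1559, 1597, 1602 and 2072 in resistant tumours, where every resistant tumour was above every untreated one by a small margin (0.21 ± 0.11, adjusted p = 0.319).

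CHAC1, which degrades glutathione and is induced by ATF4 and CHOP, was dim. Its A498 signals were 16.5, 43.1, 67.1 and 116 in untreated and 122, 128, 133, 161 and 166 in resistant tumours, so that 3 of 4 untreated tumours were below the filter limit and all resistant ones above it. The groups did not overlap, and the rise was 1.21 ± 0.32 (adjusted p = 0.0238). This call ended without untreated replicate 1 or 3 or resistant replicate 2, and with only the arrays of the A498 arm (adjusted p up to 0.0963). In 786-O its differences were 0.24 ± 0.30 and 0.09 ± 0.32, with untreated signals of the sorafenib arm spread from 24.8 to 132.

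The other targets were not called in any arm. SESN2, a stress-induced inhibitor of mTORC1, differed by 0.53 ± 0.19 in A498 (adjusted p = 0.0983), with 264, 287, 321 and 356 in untreated and 317, 345, 432, 576 and 652 in resistant tumours, and by 0.01 and 0.01 in 786-O. The amino acid transporter subunits SLC7A5 and SLC3A2, which pair to carry large neutral amino acids, differed by 0.23, 0.26 and 0.05 and by 0.05, -0.03 and -0.30 in the 3 arms. SLC7A11, which pairs with SLC3A2 to import cystine, differed by 0.10, -0.14 and -0.02. The 95% intervals of these 3 transporter genes lay between -0.59 and 0.63 over the 3 arms.

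The 4 sensors gave 0 calls by limma, with 1 unadjusted p under 0.05 in each arm. ERN1 (IRE1) differed by -0.20 ± 0.13 and -0.30 ± 0.13 in 786-O and by 0.29 ± 0.13 in A498, EIF2AK3 (PERK) by 0.17, -0.14 and 0.05, and XBP1 by 0.09 and -0.24 in the sorafenib arms of 786-O and A498, with a 95% interval of -0.32 to 0.32 on sunitinib. ATF6 did not overlap between the groups of the 786-O sorafenib arm, with 1777, 1792, 1908, 1923 and 1944 in untreated and 2035, 2106, 2171, 2176 and 2253 in resistant tumours, but its difference was small (0.20 ± 0.09, adjusted p = 0.127). The probe sets measure total mRNA and do not separate spliced from unspliced XBP1 or cleaved from full-length ATF6.

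Among the 11 chaperones and folding enzymes, 0 rose in any arm by limma, and 1, 2 and 2 had an unadjusted p under 0.05 in the 3 arms. Since 5.97%, 2.22% and 2.93% of all genes rose, 0 of 11 is near the share of all genes. HSPA5 (BiP), the main ER chaperone and the usual marker of the unfolded protein response, had signals of 17115, 19056, 19421, 19538 and 19585 in untreated and 16641, 18294, 18681, 18852 and 19486 in resistant tumours of the 786-O sorafenib arm. Its 95% intervals were -0.26 to 0.18 there, -0.14 to 0.32 on sunitinib and -0.26 to 0.21 in A498, all on the log2 scale. For this probe set a change of more than about 0.32 in either direction thus lay outside each of them. The other probe set of HSPA5 was dimmer (mean signal 973 against 18814). It gave 0.32 ± 0.18, 0.30 ± 0.19 and 0.18 ± 0.19 in the 3 arms, in no case called, so the limit of 0.32 does not hold for it. HSP90B1 (GRP94) and PDIA4, a disulfide isomerase, had the highest differences of these 11 in 786-O on sunitinib. Neither was called here, but both were with the filter at the 75th percentile, with trended robust variance, with untreated tumours of both arms pooled and without untreated replicate 3. PDIA4 was also called with a pseudocount of 64, median centring and array weights, and HSP90B1 with the ACTB covariate and without untreated replicate 5. PDIA4 signals were 6414, 6557, 6689, 7045 and 7797 in untreated and 8510.3, 8536, 8856 and 10485 in resistant tumours, without overlap (0.40 ± 0.12, adjusted p = 0.0539). The other probe set of PDIA4 gave the opposite sign in this arm and was not called (-0.09 ± 0.15). HSP90B1 signals were 7920.3, 8451, 8882, 10965 and 11042 in untreated and 10792, 11508, 12289 and 12565 in resistant tumours, overlapping (0.33 ± 0.11, adjusted p = 0.0724).

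MANF, a secreted ER stress-inducible protein, fell in A498, the only member to do so in any arm. Its signals were 2050.4, 2546, 3059.7 and 3425 in untreated and 1606, 1842, 1941, 1993 and 2078 in resistant tumours, and the lowest untreated tumour was just below the highest resistant one (-0.53 ± 0.15, adjusted p = 0.0314). The call ended without any 1 of 5 arrays (untreated replicate 1, 2 or 3, resistant replicate 1 or 4), with adjusted p up to 0.105. In 786-O MANF differed by 0.08 and 0.15. CRELD2, another secreted ER stress-inducible protein, differed by -0.16, -0.11 and -0.26, and the oxidoreductase ERO1B by -0.23, -0.20 and -0.34, so that both lay below 0 in every arm under all 3 scalings, in no case called.

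HYOU1, a chaperone of the HSP110 family, did not overlap between the groups of the 786-O sorafenib arm, with 2514, 2944, 2984, 3025 and 3215 in untreated and 3378, 3470.4, 3524, 3544 and 3854 in resistant tumours (0.28 ± 0.11, adjusted p = 0.106). The J-domain proteins DNAJB9 and DNAJC3, the isomerase PDIA6 and the chaperone complex member SDF2L1 differed by -0.28 to 0.22 over the 3 arms and were not called.

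**Figure D3:**
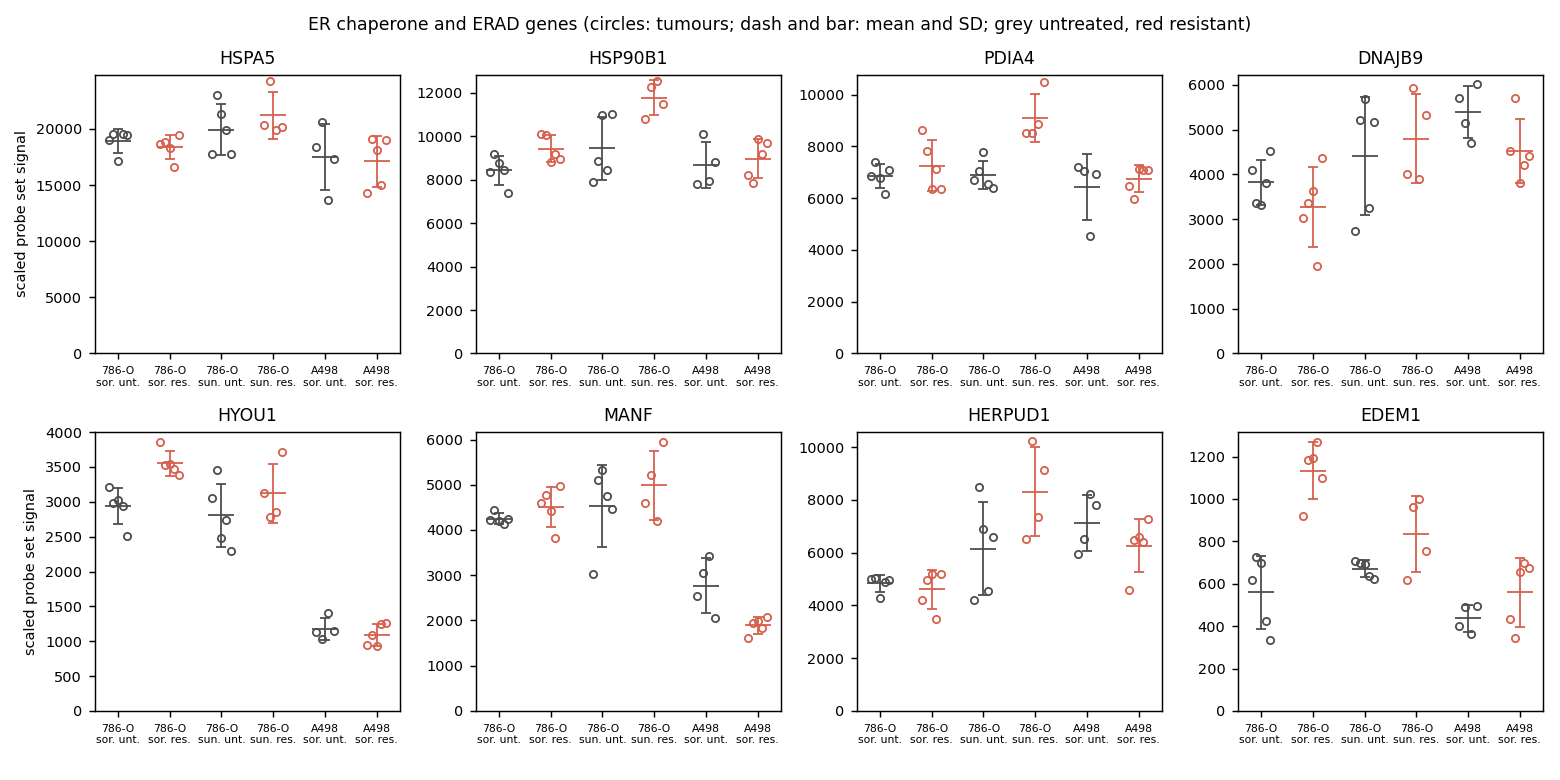
Scaled probe set signal (linear axis from 0) of 8 ER chaperone and ERAD genes in each of 28 tumours, by line, arm and treatment; circles are tumours, and the dash and bar give the mean and SD of 4 or 5 tumours. Resistant (red) and untreated (grey) circles overlap in most panels, with EDEM1 and HYOU1 in 786-O on sorafenib and PDIA4 in 786-O on sunitinib as exceptions, and HYOU1 is lower in A498 than in 786-O whatever the treatment.

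EDEM1, which recognises misfolded glycoproteins for ERAD, was the 1 ER gene that rose. It did so in 786-O on sorafenib, where 5.97% of all genes rose, so 1 of 14 is near that share. In the 786-O sorafenib arm its signals were 333, 424, 619.9, 697 and 725 in untreated and 918, 1099, 1183, 1193 and 1269 in resistant tumours, a rise of 2.06-fold without overlap (1.05 ± 0.20, adjusted p = 0.000608). It differed by 0.28 ± 0.21 on sunitinib and 0.31 ± 0.21 in A498, not called. HERPUD1, an ERAD scaffold whose promoter stretch above holds a C/EBP-ATF core, differed by 0.46 ± 0.18 on sunitinib (adjusted p = 0.15), -0.08 on sorafenib in 786-O and -0.19 in A498. SEL1L, the adaptor of the HRD1 ubiquitin ligase, differed by -0.11 to 0.02.

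Groups of resistant and untreated tumours did not overlap for 9 members in 786-O on sorafenib, 3 on sunitinib and 5 in A498. Over all genes tested the share was 12.5%, 8.46% and 9.14%.

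Whether an arm differed from another was tested as the difference between the resistant minus untreated values, each arm with its own untreated tumours. Both comparisons below set the 786-O sorafenib arm against an arm whose sample titles begin with another number. A difference that goes with that number cannot be told apart from one of drug or line. Between sorafenib and sunitinib in 786-O 0 members were called in either direction by limma (4 with unadjusted p under 0.05), where 0.442% of all genes were called higher and 0.507% lower. The widest of these differences were EDEM1 (0.76 ± 0.29, 95% interval 0.17 to 1.36), HERPUD1 (-0.54 ± 0.25, -1.06 to -0.03) and CEBPB (0.50 ± 0.21, 0.08 to 0.93). The call of EDEM1, CEBPB, TRIB3, CEBPG and WARS1 in the sorafenib arm and of ATF4 and DDIT3 in the sunitinib arm was therefore not shown to be particular to the drug. In the same comparison the 5 muscle genes had a median of -1.71, with 0 called and 4 unadjusted p under 0.05 by limma, and 1 of 13 fibroblast and pericyte genes was called lower. Their part in the members' differences was not tested.

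Between A498 and 786-O on sorafenib 1 member was called higher and 1 lower, where 3.02% and 2.17% of all genes were. The ASNS difference was larger in A498 by 0.59 ± 0.15 (adjusted p = 0.0223), and that of PPP1R15A smaller by 0.87 ± 0.24 (adjusted p = 0.0371). In this comparison 4 of 13 fibroblast and pericyte genes were called higher (median 0.90, 11 above 0), as were 1 endothelial and 1 myeloid gene, and their part in the members' differences was not tested. The ASNS call ended without untreated A498 replicate 1, and under 3 of the other alternatives. The PPP1R15A call ended without any 1 of 13 arrays (786-O untreated replicates 2 to 5 and resistant replicates 2 to 4, A498 untreated replicates 1, 2 and 4 and resistant replicates 3 to 5), with adjusted p up to 0.0874. It also ended without the filter on low values, with probe sets averaged and without the 2 arrays of highest ACTB difference. TRIB3 (-0.59 ± 0.19, adjusted p = 0.0732) and MANF (-0.61 ± 0.20, adjusted p = 0.0781) were next and not called. Centring arrays on their medians moved the median of all genes in this comparison from 0.07 to -0.12, and relative to that shift 0 members were called higher and 4 lower (HYOU1, MANF, PPP1R15A and TRIB3). Over all genes the split there was 189 higher and 714 lower, against 417 and 299. In the 786-O sorafenib arm centring turned 825 rises and 1267 falls into 1191 and 721, in the sunitinib arm 306 and 392 into 355 and 258, and in A498 405 and 470 into 171 and 800.

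Levels also differed between untreated tumours of the lines. With the untreated 786-O tumours from the sunitinib arm as the reference for untreated A498, 12 members were higher and 11 lower of 34, where 27.3% of all genes were higher and 30.6% lower. Both shares of the members were near those of all genes. By role, 10 ATF4/CHOP genes were higher and 5 lower, and 1 ER gene was higher and 6 lower.

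**Figure D4:**
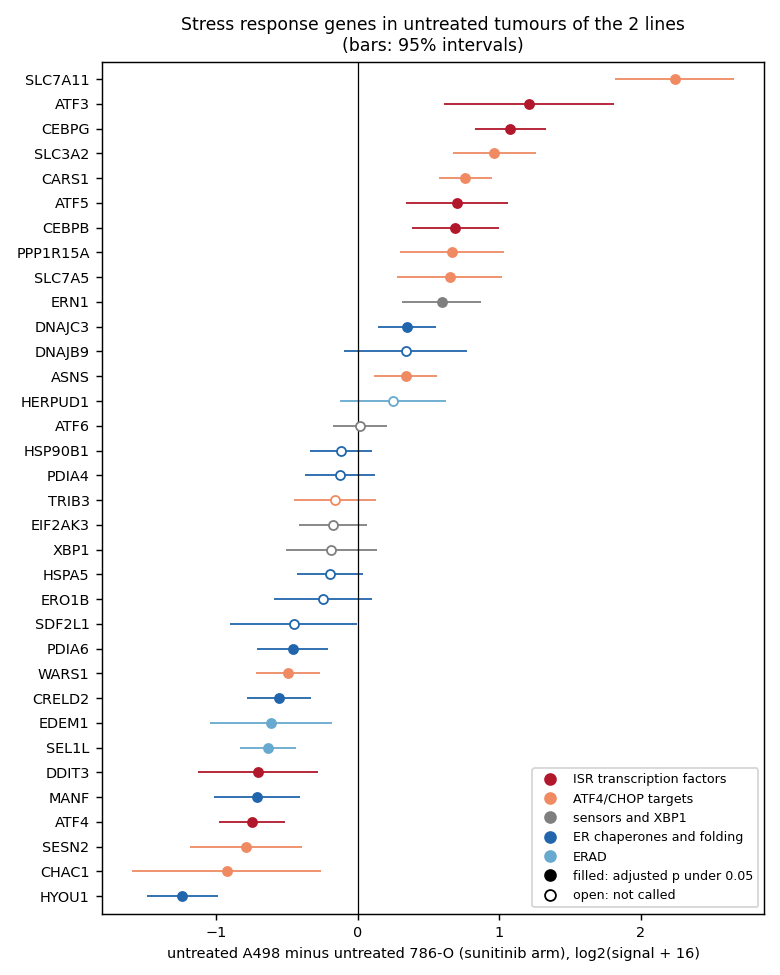
Difference between untreated A498 and untreated 786-O tumours of the sunitinib arm for the 34 members, in log2(signal + 16) units with 95% intervals, sorted by size; filled points are called. SLC7A11 is highest at 2.24 and HYOU1 lowest at -1.24.

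SLC7A11 was higher in A498 by 2.24 ± 0.20 (4.71-fold, adjusted p = 9.23e-10), with signals of 252, 398, 399, 410.4 and 502 in 786-O and 1491, 1544, 2295 and 2295 in A498. ATF3 (1.21), CEBPG (1.08), SLC3A2 (0.96), CARS1 (0.76), ATF5 (0.70), CEBPB (0.69), PPP1R15A (0.67), SLC7A5 (0.65) and ASNS (0.34) were also higher there. The lower ATF4/CHOP genes were CHAC1 (-0.92), SESN2 (-0.79), ATF4 (-0.74), DDIT3 (-0.70) and WARS1 (-0.49). These 5 were thus lower in untreated A498, and 4 of them (not SESN2) were among the 5 members that rose in resistant A498. Both comparisons use the untreated A498 tumours, so that a low value there enters both. Of the ER genes HYOU1 (-1.24 ± 0.12, 2.36-fold lower, adjusted p = 3.12e-09), MANF (-0.71), SEL1L (-0.63), EDEM1 (-0.61), CRELD2 (-0.55) and PDIA6 (-0.46) were lower in A498, and DNAJC3 (0.35) was higher. Of the sensors ERN1 was higher (0.59). Between untreated 786-O tumours of the sorafenib and the sunitinib arm 0 members were called by limma (3 with unadjusted p under 0.05), where 0.21% of all genes were higher and 0.0652% lower. Those 3, as sorafenib arm minus sunitinib arm, were ATF3 (-0.57 ± 0.27), ATF4 (-0.30 ± 0.11) and SLC7A5 (0.42 ± 0.17). The sizes of the differences between the lines thus depend on which 786-O arm is the reference. The sunitinib arm, used as the reference here, shares the first number of its sample titles with A498, and the sorafenib arm does not.

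For 20 members, 32 other probe sets were tested. Of these 23 gave the sign of the chosen one in 786-O on sorafenib, 23 on sunitinib and 20 in A498. The second probe set of PPP1R15A gave 1.22 in 786-O on sorafenib, and that of TRIB3 0.72, both called over the 26924 probe sets tested. On sunitinib that of PPP1R15A was not called (0.75, adjusted p = 0.0764), and in A498 that of TRIB3 had the opposite sign (-0.12 against 0.11). Those of CEBPG (0.18) and WARS1 (0.24) were lower in 786-O on sorafenib and not called, and a second one of WARS1 was called in A498 (0.53, adjusted p = 0.0102). A probe set of ATF6 that was not the brightest was called in 786-O on sorafenib (0.58, adjusted p = 0.0158). That of HSP90B1 fell on sunitinib (-0.66, adjusted p = 0.0417), against the sign of the chosen one. The other probe set of ATF3 gave -0.30 in 786-O on sorafenib.

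Further genes of both pathways were taken from lists that share no gene with the members. These lists too were chosen with earlier results of these data known. Of 34 other ATF4 and amino acid response genes tested, 10 rose and 1 fell in 786-O on sorafenib, 7 rose and 3 fell on sunitinib, and 7 rose and 0 fell in A498, with medians of 0.19, 0.19 and 0.28. Over all genes 5.97% rose and 9.18% fell in the first, 2.22% and 2.84% in the second and 2.93% and 3.4% in the A498 arm. In the 786-O sorafenib arm the largest were EIF4EBP1, an ATF4-induced brake on cap-dependent translation (0.74 ± 0.15, adjusted p = 0.00135), and CTH, which makes cysteine (0.62 ± 0.20, adjusted p = 0.0366), while the serine synthesis enzyme PSAT1 fell (-0.67 ± 0.18, adjusted p = 0.0137). On sunitinib the glutamine carrier SLC1A5 (0.66 ± 0.13) and EIF4EBP1 (0.60 ± 0.16) rose most, and PSAT1 (-0.67 ± 0.20) and KLHL24 (-0.57 ± 0.14) fell most. In A498 GADD45A, a growth arrest gene (0.89 ± 0.24), and MTHFD2, a mitochondrial folate enzyme (0.68 ± 0.13), rose most. Chosen after their values were seen, GARS1, the glycyl-tRNA synthetase, was called in all 3 arms (0.28, 0.33 and 0.33), and the serine synthesis enzyme PSPH fell on sunitinib (-0.47) and rose in A498 (0.64).

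The remaining 4 lists gave between 0 and 2 calls per arm and direction, and with so few genes a share near the 2.22% to 9.18% of all genes is 0 to 2 genes, so these counts are a description only. In the sunitinib arm 0 of their genes were called by limma, where 3, 3, 0 and 1 genes of the lists in the order below had an unadjusted p under 0.05. Of 19 other ER folding genes tested 1 rose in 786-O on sorafenib (ERO1A, an oxidase of disulfide formation that is also a hypoxia target, 0.89 ± 0.11, adjusted p = 3.78e-06) and 2 fell in A498 (CRELD1, -0.44, and the nucleotide exchange factor SIL1, -0.41). Of 20 other ERAD and translocation genes 2 rose in 786-O on sorafenib (SPCS3, 0.42, and SELENOS, 0.34), and 1 rose and 1 fell in A498 (UFD1, 0.42, and DERL2, -0.48). Of 10 genes of eIF2alpha kinases, phosphatase and the exchange factor eIF2B, 1 rose in 786-O on sorafenib (the kinase PKR, EIF2AK2, 0.42, which interferon also induces), and 1 rose and 1 fell in A498 (the eIF2B subunits EIF2B2, 0.64, and EIF2B4, -0.32). Of 8 genes of ATF6 processing and the CREB3 family 2 fell in 786-O on sorafenib (CREB3L1, -0.93, and WFS1, -0.41), and 1 rose and 1 fell in A498 (CREB3L1, 0.91, and CREB3, -0.36). In 786-O on sorafenib 0 of these 8 genes lay above 0, where 43.1% of all genes did. The other lists had 13 of 19, 13 of 20 and 8 of 10 above 0 there, in the order above. On sunitinib and in A498 5 of the 8 lay above 0. CREB3L1 differed by 0.03 on sunitinib. It is known to drive collagen secretion, and its fall came in the arm whose fibroblast and pericyte markers fell, and their part in it was not tested.

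**Figure D5:**
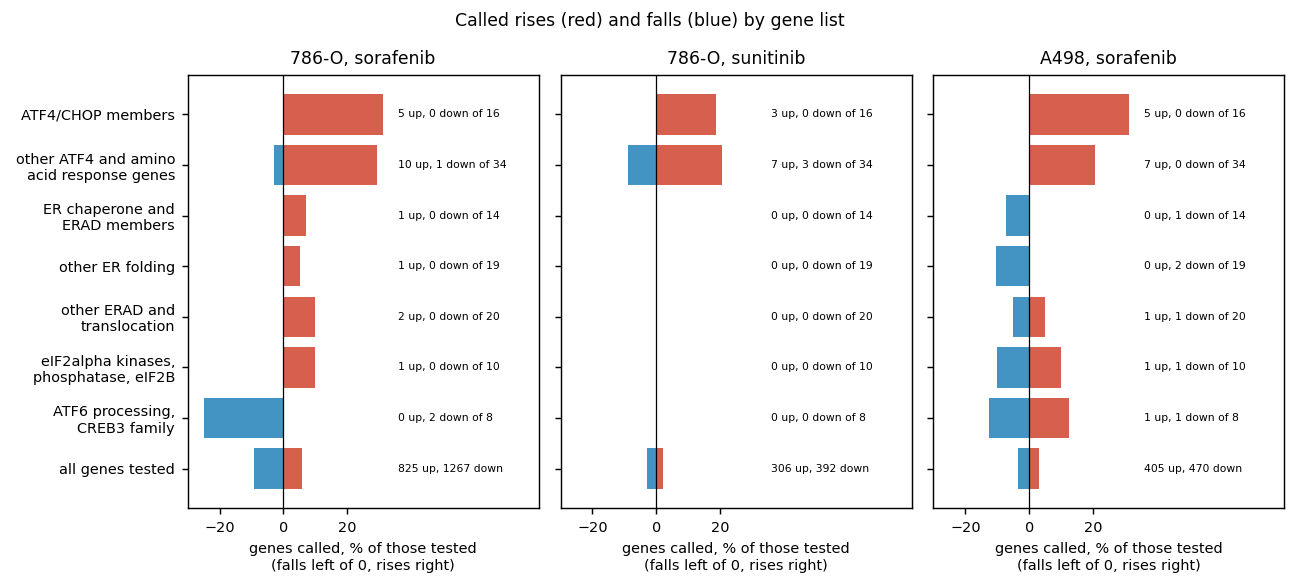
Share of the genes tested in each list that were called higher (red, right of 0) or lower (blue, left of 0) in resistant than in untreated tumours, in percent, for the 3 arms, with the counts printed beside the bars. The ATF4/CHOP members and the other ATF4 and amino acid response genes have the longest bars to the right, and all genes tested stand in the bottom row.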

How the data were processed

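Whole-tumour RNA of 28 xenografts was hybridised to 1-colour Affymetrix HG-U133 Plus 2.0 arrays. The authors deposited linear probe set intensity values, whose trimmed mean (2% at each end) was the same on every array (500.06 to 500.07), and RMA and MAS5 are both listed in the submitters' processing notes, with no role or version. Such scaling assumes that the summed signal is equal across tumours. The lowest value was 0.0875 and the highest 64034.6, and the number of arrays limits the precision.

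Of 54675 probe sets 41091 carried 1 gene symbol and 1801 several, and 11721 were unnamed. Per gene the probe set of highest mean was kept. Genes above a signal of 89.4, the median of all values, on at least 4 arrays were tested as log2(signal + 16) with limma 3.58.1 (R 4.3.3), 1 mean per group over all arrays, with Benjamini-Hochberg adjustment over 13808 genes and a threshold of 0.05. The limma steps were tested on simulated data. Members and lists were chosen with earlier results of these data known. All members were named, those called in full; of each pathway list, the 2 largest called changes per direction and arm were named. Promoters came from RefSeq (GRCh38.p14) for 34 of 35 members. Protein sequences were not used here.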

Additional observations from a re-analysis of the deposited data

Results flagged for a closer look

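Within each group of 4 or 5 tumours, the highest and lowest log2 value of each member was set against the others by Dixon's ratio. Of 204 groups 13 had a tumour far from the rest, where chance gives about 1 in 20.

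Among transcription factors, ATF4 was low in sunitinib-resistant 786-O replicate 4 (signal 11479.7), ATF5 was low in untreated A498 replicate 3 (495), and CEBPB was high in untreated 786-O of the sorafenib arm replicate 1 (6601). ASNS stood apart in 3 groups, low in sorafenib-resistant 786-O replicate 3 (1268), high in sunitinib-resistant 786-O replicate 4 (2072) and low in untreated 786-O of the sunitinib arm replicate 5 (1280.4). TRIB3 was high in sorafenib-resistant 786-O replicate 4 (10173).

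Among ER genes, HSPA5 was low in untreated 786-O of the sorafenib arm replicate 3 (17115) and high in sunitinib-resistant 786-O replicate 2 (24313). The same untreated replicate 3 was low for HERPUD1 (4277), as was resistant A498 replicate 1 (4572). PDIA4 was low in untreated A498 replicate 3 (4547), the tumour that was also low for ATF5, and ERO1B was high in untreated A498 replicate 4 (605).

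The change with sorafenib resistance differed between A498 and 786-O by limma for ASNS (0.59 higher in A498) and for PPP1R15A (-0.87).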

How the results depend on the processing

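The 6 rises of 786-O on sorafenib kept their direction and call under each of 25 alternatives. In A498 WARS1, ATF4 and DDIT3 kept theirs under 22 and ASNS under the 21 in which it was tested. Members risen in 786-O on sorafenib became 10 with median centring and 10 with untreated 786-O tumours of both arms pooled, and 6 to 8 without 1 array. Those risen on sunitinib became 5 with the 75th percentile filter and with trended robust variance, 9 with pooled untreated tumours, 0 with only the arrays of the comparison, and 1 to 4 without 1 array. Members fallen in A498 became 0 without the low-value filter, with only the arrays of the comparison and with the GAPDH covariate, and 0 to 1 without 1 array. Members called between A498 and 786-O became 1 without the filter and without _x_at and _s_at probe sets, 0 with each gene's probe sets averaged and without the 2 arrays of highest ACTB difference, 4 with median centring and with trended robust variance, and 0 to 2 without 1 array. Between untreated 786-O arms 1 member was called with probe sets averaged. The ATF4/CHOP median became 0.47 (786-O sorafenib) and 0.32 (sunitinib) without _x_at and _s_at probe sets, and 0.35 (786-O sorafenib) and 0.29 (A498) with median centring; without 1 array it ran from 0.22 to 0.35, 0.12 to 0.27 and 0.31 to 0.52 in the 3 arms. The ER median on sunitinib became 0.018 without _x_at and _s_at probe sets, and ran from 0.032 to 0.194 without 1 array; in 786-O on sorafenib it ran from 0.014 to 0.134 and in A498 from -0.215 to -0.070 over all alternatives. CHAC1 in A498 ran from 0.78 (pseudocount 64) to 1.53 (without untreated replicate 4). With only the arrays of a comparison, all genes gave 101 rises and 158 falls on sunitinib (306 and 392 with all arrays) and 79 and 106 in A498 (405 and 470). Median centring turned the median of all genes from -0.05 to 0.04 in 786-O on sorafenib and from 0.03 to -0.07 in A498, and with it the sign of members close to 0, none of them called (HSPA5 and HERPUD1 in the former, SDF2L1, SLC3A2 and XBP1 on sunitinib, and CARS1, SLC7A5, EIF2AK3, HSP90B1, PDIA4 and PDIA6 in A498). Quantile normalisation turned HSPA5, SDF2L1 and SESN2 in 786-O on sorafenib and ATF6, SEL1L and SLC7A11 in A498. No call in an arm and neither the ATF4/CHOP nor the ER median turned its sign. Apart from alternatives that removed arrays the cause was not tested. No paired analysis was possible because the labels link no untreated tumour to a resistant one. The replicate numbers only give the order of tumours within a group.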
